A study of Mus musculus with 9 samples.

Results

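The comparison is of 1 library of untreated GM-BMDM with 1 library of untreated M-BMDM, which are 2 of the 9 libraries of the series and 2 of its 4 macrophage libraries. The untreated GM-BMDM and the untreated M-BMDM were macrophages derived from bone marrow of C57BL mice, kept without tunicamycin, and total RNA was taken from both. The members were set by the labels and not by any measured value. The other macrophage pair was GM-BMDM and M-BMDM kept for 4 h with tunicamycin, an inhibitor of N-linked glycosylation. It gave the difference between the kinds once more, in other libraries and in another state of the cells. The sources used here give no animal ages, sexes, numbers of pooled animals or culture recipes. The labels do not spell out GM and M. In the field such names usually stand for macrophages grown with GM-CSF (granulocyte-macrophage colony-stimulating factor) or with M-CSF (macrophage colony-stimulating factor).

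Macrophages are phagocytes that clear dead cells and microbes, present antigen and release cytokines. Marrow progenitors become macrophages under M-CSF, which signals through the receptor kinase encoded by Csf1r, and under GM-CSF, which signals through an alpha chain (Csf2ra) and a shared beta chain (Csf2rb). Resident macrophages of most tissues depend on the M-CSF receptor, and alveolar macrophages of the lung depend on GM-CSF. Marrow cultures grown with GM-CSF are known to hold cells that resemble macrophages and cells that resemble dendritic cells.

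Of 22060 genes listed, the 11049 with a mean of at least 1 CPM (counts per 1e6 reads, scaled by TMM) over the 4 macrophage libraries were compared. Below, a gene is called higher or lower when log2(CPM + 1) of untreated GM-BMDM minus that of untreated M-BMDM is at least 1 or at most -1. This call compares 2 libraries, has no replicates behind it and carries no test. By this measure 1371 genes (12.4%) were higher in GM-BMDM and 776 (7.02%) were lower. The other 8902 genes stayed within 1, and the median difference of all genes compared was -0.03. Folds are ratios of CPM with 95% Clopper-Pearson intervals, which cover counting error alone since reads are not independent molecules. The genes that were higher took 18.6% of counts in GM-BMDM and 4.39% in M-BMDM. The genes that were lower took 3.56% of counts in GM-BMDM and 14.5% in M-BMDM. Of the higher genes 463 (33.8%) were under 1 CPM in M-BMDM, and of the lower genes 97 (12.5%) were under 1 CPM in GM-BMDM.

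**Figure D1:**
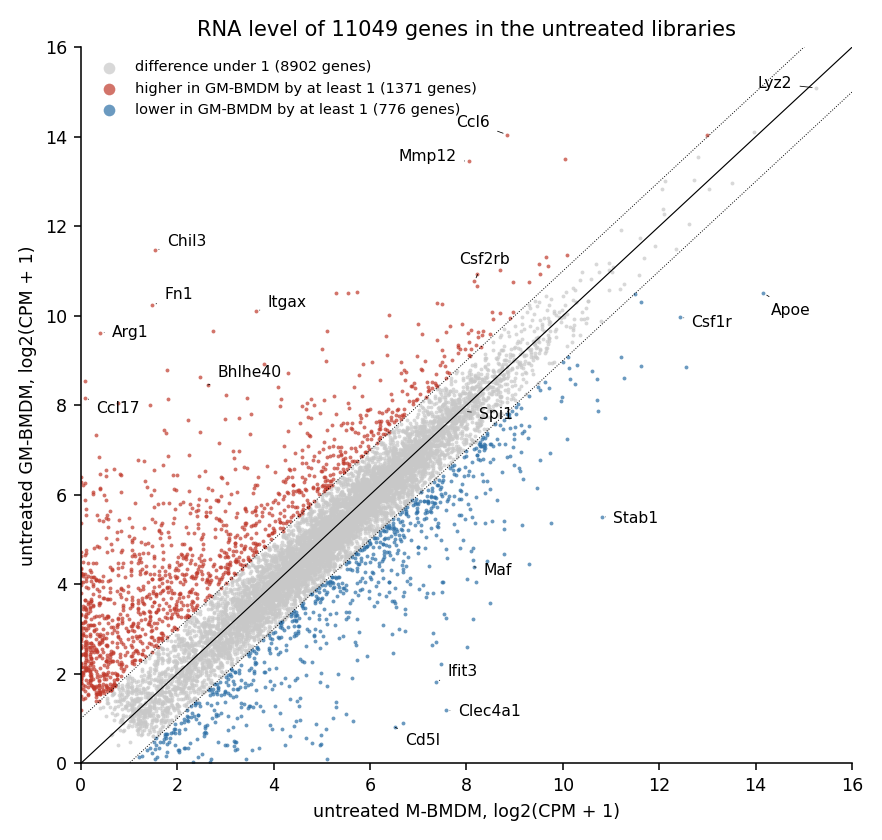
RNA level of each of the 11049 genes compared in untreated GM-BMDM (vertical axis) and untreated M-BMDM (horizontal axis), both as log2(CPM + 1), 1 library each. The solid line marks equal levels and the dotted lines a difference of 1, beyond which 1371 genes lie above (red) and 776 below (blue). Spi1 and Lyz2 lie near the line, Chil3, Arg1 and Ccl17 far above it, and Clec4a1, Cd5l and Stab1 far below it.

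The words rose and fell are kept for a test, the quasi-likelihood test of edgeR for kind, which uses the 4 macrophage libraries together and adds a term for tunicamycin, at a Benjamini-Hochberg adjusted p of 0.05. In it 2803 genes (25.4%) rose and 2765 (25.0%) fell in GM-BMDM. Without the untreated GM-BMDM library and with kind as the sole term the counts were 1577 and 1052, and without the tunicamycin GM-BMDM library they were 1685 and 1113. Nothing in the labels says that the libraries came from separate cultures, so these p-values measure only the spread between these libraries. With the tunicamycin term, that spread comes from how the difference between kinds varied between the untreated and tunicamycin pairs. A fit with kind as the sole term treats an untreated and a tunicamycin library as replicates of a kind. Of the 1371 higher genes 1361 rose in the fit, and of the 776 lower genes 775 fell. Because the fit contains the untreated pair, this overlap is no separate support.

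The tunicamycin pair shares no library with the untreated pair. In it 1388 genes (12.6%) were higher and 864 (7.82%) lower in GM-BMDM. A total of 1203 genes were higher in both pairs, which is 87.7% of the higher genes of the untreated pair and 86.7% of those of the tunicamycin pair. For lower genes the 618 shared genes made up 79.6% of the untreated list and 71.5% of the tunicamycin list. No gene was higher in the untreated pair and lower in the tunicamycin pair, or the reverse. Below, where a gene has a pair of values per kind, the first is the untreated library and the second the tunicamycin library.

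Depth was alike, with totals of 42107553 assigned reads in untreated GM-BMDM, 37695079 in untreated M-BMDM and 39592377 to 42751176 in the tunicamycin libraries. Mitochondrial transcripts made up 1.86% of the GM-BMDM counts and 0.90% of the M-BMDM counts without tunicamycin. Macrophage markers were present in both: Lyz2, encoding lysozyme, stood at 34953 CPM in GM-BMDM and 39136 in M-BMDM, the lysosomal marker Cd68 at 877 CPM in GM-BMDM and 1064 in M-BMDM, the adaptor Tyrobp at 1010.4 CPM in GM-BMDM and 969.9 in M-BMDM and the myeloid transcription factor Spi1 (PU.1) at 233 CPM in GM-BMDM and 245 in M-BMDM. All 12 markers of the macrophage list were compared, with 1 higher and 5 lower. The higher one was Itgam. Among the lower ones, Adgre1 stood at 470 CPM in GM-BMDM and 3163 in M-BMDM (6.73-fold lower, 6.63 to 6.84). Aif1 had the lowest level of the list in GM-BMDM, at 9.14 CPM in GM-BMDM and 105 in M-BMDM.

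Markers of other cells moved with the difference, higher for most lists and lower for those of plasmacytoid dendritic cells and lymphocytes. Of 17 neutrophil markers 10 were compared, 8 of them higher and 1 lower in GM-BMDM, and the list summed to 1636 to 1715 CPM in GM-BMDM and 243 to 255 CPM in M-BMDM. In GM-BMDM Mmp8 made up most of this sum, at 1459 CPM, against 45.6 CPM in M-BMDM. The lower gene was Csf3r, at -4.32 on the log2 scale. It made up most of the sum in M-BMDM, and its levels are given below. The granule proteins Ngp (46.0 CPM in GM-BMDM and 0.268 in M-BMDM) and Ltf (31.5 CPM in GM-BMDM and 0.671 in M-BMDM) were higher. The defining neutrophil and precursor genes Ly6g, Elane and Mpo were near 0, at most 2.83 CPM in untreated GM-BMDM and at most 0.0805 CPM in untreated M-BMDM. The 19 genes that mark mast cells, eosinophils or basophils had 7 compared, of which 6 were higher in GM-BMDM. That list summed to 118 to 150.3 CPM in GM-BMDM, mostly as Siglecf and Kit, and to 3.67 to 4.91 CPM in M-BMDM. The mast-cell proteases Mcpt1, Mcpt4, Cma1 and Tpsab1 had 0 counts in both untreated libraries. Of 9 markers of conventional dendritic cells 7 were compared and 6 were higher, with sums of 1111 to 1165 CPM in GM-BMDM and 14.8 to 18.3 CPM in M-BMDM. Itgax made up most of that sum, and Flt3 and Xcr1 stayed at or under 0.199 CPM in both untreated libraries. Of 10 osteoclast markers 8 were compared and 6 were higher, with sums of 1885 to 1958 CPM in GM-BMDM and 116 to 118 CPM in M-BMDM. Few markers of fibroblasts (1 of 10), epithelium (1 of 7) and endothelium (3 of 6) reached the mean needed to be compared. Of 15 lymphocyte markers 1, Cd4, was compared, and it was lower (0.397 CPM in GM-BMDM and 8.13 in M-BMDM). The lymphocyte list summed to 2.36 to 3.01 CPM in GM-BMDM and 9.74 to 10.1 CPM in M-BMDM. Of 7 plasmacytoid dendritic-cell markers 2, Bst2 and Tcf4, were compared and both were lower, with list sums of 82.7 to 84.2 CPM in GM-BMDM and 306 to 356 CPM in M-BMDM. Bst2 is also on the interferon-stimulated list below, and Tcf4 on the list of transcription factors. The defining marker Siglech was not compared because of its low mean, and had 0 counts in both GM-BMDM libraries. Of 10 erythroid and megakaryocyte markers 3, Pf4, Itga2b and Gp9, were compared and all 3 were higher, with list sums of 178 to 185 CPM in GM-BMDM and 19.8 to 28.6 CPM in M-BMDM. In bulk RNA a smaller share of a cell type and less RNA per cell cannot be told apart, and the part of such cells in the results below was not tested.

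Receptors of the growth factors differed in opposite directions. The shared beta chain Csf2rb stood at 1746 and 1783 CPM in GM-BMDM, against 287 and 284 CPM in M-BMDM. Its mouse-specific paralogue Csf2rb2 stood at 275 and 227 CPM in GM-BMDM, against 86.5 and 79.4 CPM in M-BMDM. The M-CSF receptor Csf1r showed the opposite, at 1002 and 945 CPM in GM-BMDM, against 5517 and 4742 CPM in M-BMDM. On the FPKM scale, which divides by gene length and is the authors' own, Csf2rb stood at 229 and Csf1r at 196 in untreated GM-BMDM, and at 38.9 and 1116 in untreated M-BMDM. The alpha chain Csf2ra differed little (147 CPM in GM-BMDM and 107 in M-BMDM; 1.38-fold higher, 1.32 to 1.43). The G-CSF receptor Csf3r was lower in GM-BMDM at 8.57 and 8.18 CPM in GM-BMDM, against 190.4 and 199 CPM in M-BMDM (22.2-fold lower, 19.9 to 24.8). Kit, the stem-cell-factor receptor, was higher (35.6 CPM in GM-BMDM and 0.778 in M-BMDM; 45.7-fold higher, 31.7 to 68.5), and so was Csf1, which encodes M-CSF (44.98 CPM in GM-BMDM and 5.05 in M-BMDM; 8.92-fold higher, 7.67 to 10.4). The ligand genes Csf2, Csf3 and Il34 had 0 counts in both untreated libraries, where 3 counts is the limit that 0 allows. Of the 8 genes of this list that were compared 5 rose and 3 fell in the fit, where log2 fold changes were 2.63 ± 0.13 SE, adjusted p = 1.0e-05 for Csf2rb and -2.39 ± 0.15 SE, adjusted p = 2.4e-05 for Csf1r in edgeR's fit.

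Transcription factors of macrophage and dendritic-cell lineages split into a set held higher and a set held lower. Of 32 compared, 14 were higher, 7 lower and 11 within 1. The basic helix-loop-helix repressor Bhlhe40 showed the largest difference of the list, at 349.8 and 347 CPM in GM-BMDM, against 5.21 and 16.6 CPM in M-BMDM (67.2-fold higher, 58.3 to 77.8). Irf4, a factor of dendritic cells and of alternative activation, stood at 113 and 82.4 CPM in GM-BMDM, against 8.08 and 4.48 CPM in M-BMDM (13.97-fold higher, 12.4 to 15.8). Egr2, an immediate early factor, stood at 94.95 and 95.6 CPM in GM-BMDM, against 8.21 and 7.70 CPM in M-BMDM. Klf4, a monocyte factor, stood at 53.7 and 56.7 CPM in GM-BMDM, against 4.43 and 24.8 CPM in M-BMDM. For these genes both GM-BMDM libraries lay above both M-BMDM libraries, and Klf4 in M-BMDM was higher with tunicamycin than without. Pparg, which alveolar macrophages require, was higher by a small margin (70.9 CPM in GM-BMDM and 34.6 in M-BMDM; 2.05-fold higher, 1.92 to 2.19). On the other side, Maf (c-Maf), a factor of resident macrophages, stood at 19.97 and 17.7 CPM in GM-BMDM, against 285 and 203 CPM in M-BMDM (14.3-fold lower, 13.3 to 15.4). Tcf4 (33.4 CPM in GM-BMDM and 165 in M-BMDM) and the NF-kB subunit Relb (15.8 CPM in GM-BMDM and 54.4 in M-BMDM) were lower as well. The factors Spi1, Mitf and Nr1h3 (LXR alpha) did not pass the test, with log2 differences of -0.07, -0.09 and -0.20. In the fit 16 members rose and 11 fell.

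**Figure D2:**
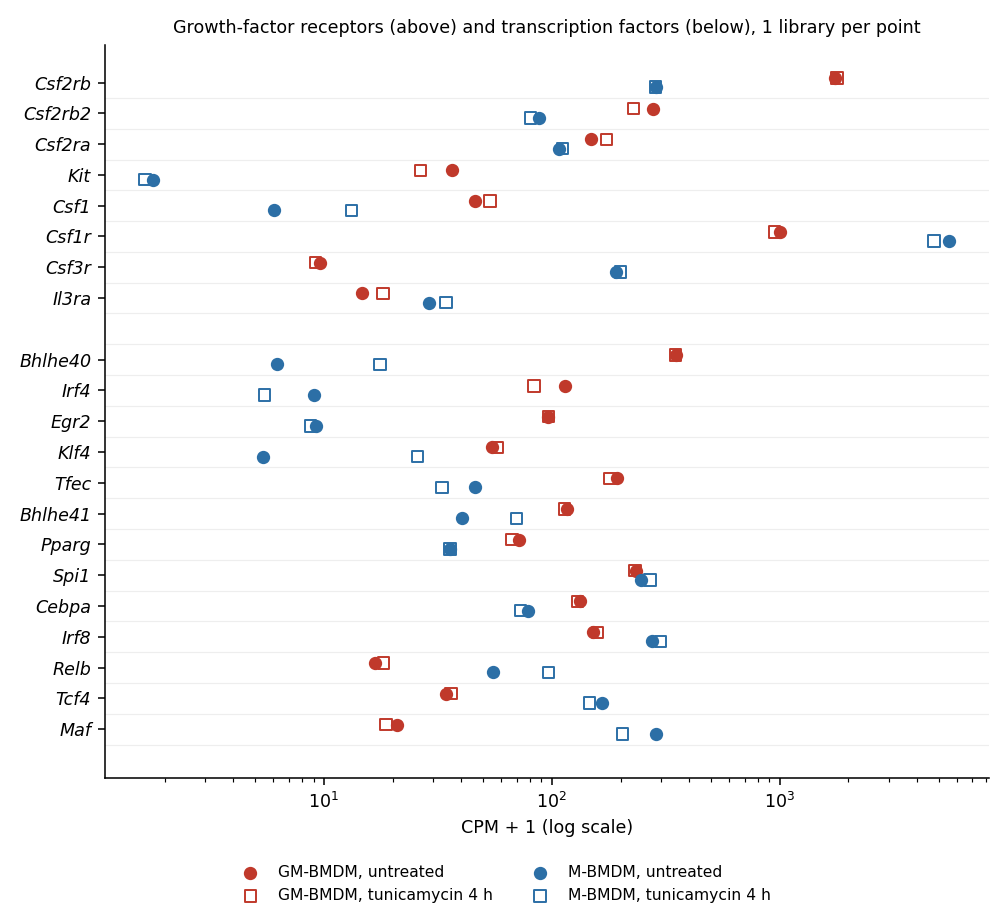
Levels of growth-factor receptors and ligands (upper block) and transcription factors (lower block) as CPM + 1 on a log axis, with 1 library per point. Red stands for GM-BMDM and blue for M-BMDM, filled circles for untreated and open squares for tunicamycin. For Csf2rb, Kit, Bhlhe40 and Irf4 both red points lie right of both blue points, for Csf1r, Csf3r, Tcf4 and Maf both lie left of them, and for Spi1 all 4 points lie close together.

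Genes known from alveolar macrophages were mostly higher in GM-BMDM. Of 26 listed 19 were compared, 16 of them higher and 1 lower, with a median of 3.76 in the untreated pair and 3.56 in the tunicamycin pair, against -0.03 and -0.04 over all genes. The carbonic anhydrase Car4, a defining gene of alveolar macrophages, had 0 counts in untreated M-BMDM and stood at 25.6 CPM in untreated GM-BMDM (at least 317-fold higher, against a floor of 3 counts per library). Plet1, an epithelial and macrophage surface protein, likewise had 0 counts in untreated M-BMDM and stood at 83.3 CPM in GM-BMDM (a ratio of 1035 with the same floor). The sialic-acid receptor Siglecf stood at 93.9 and 73.5 CPM in GM-BMDM, against 0.617 and 0.427 CPM in M-BMDM. The oxidised-LDL receptor Olr1 (46.1 CPM in GM-BMDM and 0.0805 in M-BMDM), the zinc transporter Slc39a2 (28.1 CPM in GM-BMDM and 0.268 in M-BMDM) and the fatty-acid binding protein Fabp4 (238 CPM in GM-BMDM and 61.3 in M-BMDM) were higher too. The ribonucleases Ear2, Rnase2a and Ear6 stood at 159.6, 77.0 and 40.2 CPM in GM-BMDM and at most 0.242 CPM in M-BMDM. They are near-identical copies, so the split of reads among them is uncertain. Some members went the other way or were near 0. Marco, a scavenger receptor of alveolar macrophages, was lower (28.4 CPM in GM-BMDM and 80.1 in M-BMDM; 2.82-fold lower, 2.63 to 3.02), and Krt79 and Krt19 had 0 counts in both untreated libraries. In the fit 18 rose and 1 fell. The sum of markers of mast cells and eosinophils given above shares Siglecf with this list, and that of osteoclast markers shares Ctsk and Atp6v0d2.

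Genes of resident macrophages in other tissues were mostly lower. Of 25 compared 14 were lower, 3 higher and 8 within 1, with a median of -1.51. In the tunicamycin pair 12 were lower and 3 higher, with a median of -0.89. Stab1, a scavenger receptor for modified proteins, stood at 44.6 and 46.2 CPM in GM-BMDM, against 1792 and 1263 CPM in M-BMDM. Cd5l, a secreted protein of resident macrophages, stood at 0.745 and 0.518 CPM in GM-BMDM, against 91.0 and 93.7 CPM in M-BMDM. The selenium carrier Selenop (462 CPM in GM-BMDM and 6014 in M-BMDM; 13.01-fold lower, 12.8 to 13.2), the sialoadhesin Siglec1 (38.9 CPM in GM-BMDM and 566 in M-BMDM; 14.6-fold lower, 13.8 to 15.3), the bridging protein Gas6 for dead-cell uptake (40.5 CPM in GM-BMDM and 859.6 in M-BMDM; 21.2-fold lower, 20.2 to 22.3) and the folate receptor Folr2 (0.323 CPM in GM-BMDM and 17.9 in M-BMDM) were lower. The fractalkine receptor Cx3cr1 was lower as well (1.61 CPM in GM-BMDM and 21.5 in M-BMDM; 13.3-fold lower, 10.3 to 17.4). Mertk, the receptor that binds Gas6, showed no such gap (152 CPM in GM-BMDM and 156 in M-BMDM). Its relative Axl was higher (777 CPM in GM-BMDM and 134 in M-BMDM, 5.80-fold higher, 5.63 to 5.97). Its relative Tyro3 was higher too (18.1 CPM in GM-BMDM and 0 counts in M-BMDM, a ratio of 224 with 3 counts in place of 0). Pf4, Cd33 and the microglial gene Tmem119 were the members that were higher (2.70, 2.40 and 1.90 on the log2 scale). Pf4 is also among the erythroid and megakaryocyte markers above. Timd4, Vsig4, Lyve1 and Sall1 were under 0.2 CPM in both untreated libraries. In the fit 4 members rose and 15 fell.

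Surface genes of dendritic cells gave a mixed picture, with 13 of 20 compared higher and 3 lower. The integrin Itgax (CD11c) stood at 1100.3 and 1059 CPM in GM-BMDM, against 11.4 and 15.6 CPM in M-BMDM. The lectin Mgl2 stood at 285 and 147 CPM in GM-BMDM, against 9.90 and 4.95 CPM in M-BMDM. The uptake receptor Ly75 (DEC-205) stood at 117 and 112 CPM in GM-BMDM, against 3.70 and 3.06 CPM in M-BMDM. The lymph-node homing receptor Ccr7 (16.9 CPM in GM-BMDM and 0.188 in M-BMDM) and Clec9a (18.8 CPM in GM-BMDM and 0.134 in M-BMDM) were also higher. The costimulatory receptor Cd40 (1.44 CPM in GM-BMDM and 15.2 in M-BMDM; 10.6-fold lower, 8.07 to 14.1) and the maturation marker Cd83 (12.0 CPM in GM-BMDM and 62.1 in M-BMDM; 5.18-fold lower, 4.69 to 5.72) were lower, and the costimulatory ligand Cd86 differed by -0.41 while Cd80 differed by 1.09. The sum of conventional dendritic-cell markers given above moved with this list, and its part was not tested. In the fit 13 rose and 7 (3 without the tunicamycin GM-BMDM library) fell.

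**Figure D3:**
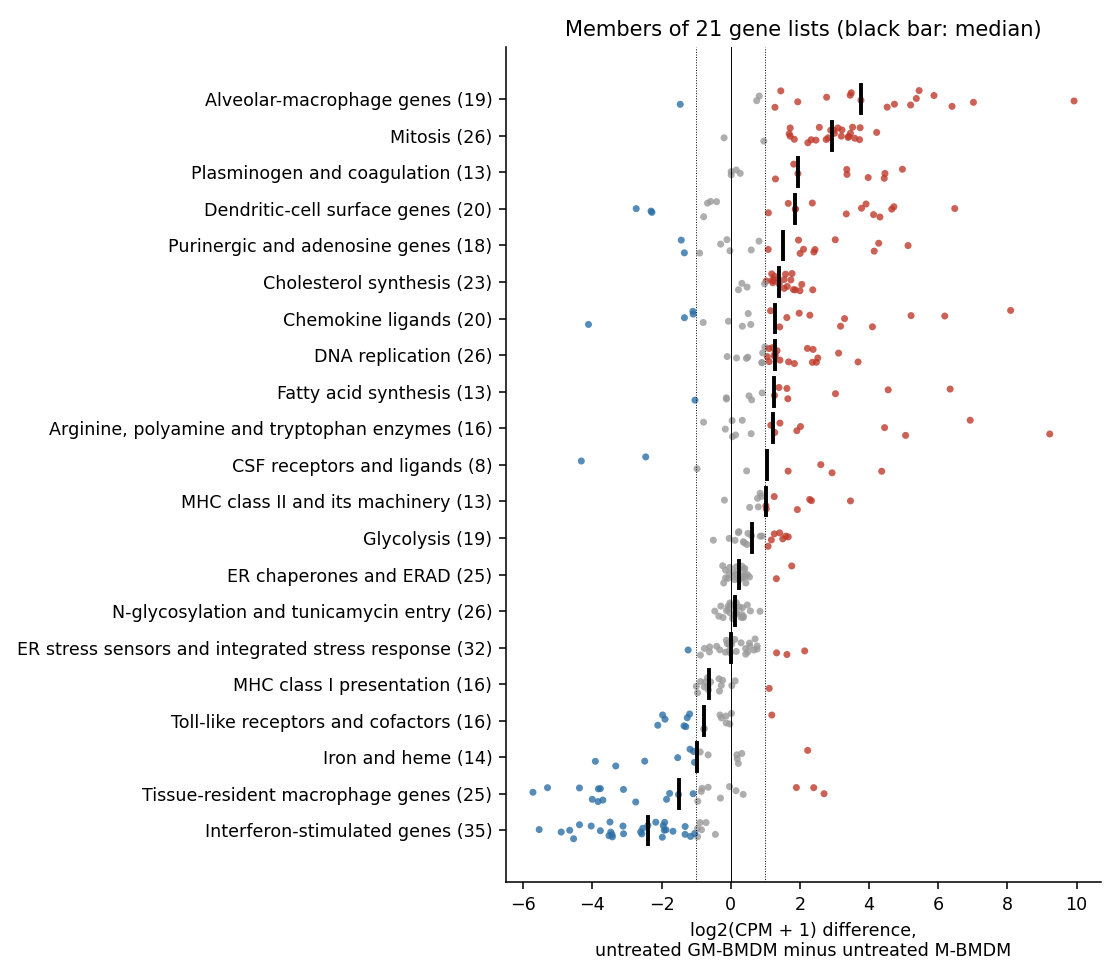
Members of 21 gene lists by their log2(CPM + 1) difference between untreated GM-BMDM and untreated M-BMDM, ordered by list median (black bar), with the number of members compared in brackets. Red points are higher and blue points lower by at least 1. The highest medians belong to alveolar-macrophage genes (3.76) and mitosis genes (2.94), the lowest to interferon-stimulated genes (-2.40), and N-glycosylation genes cluster around 0.11.

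Chemokine genes were among the most unequal. Of 20 ligands compared 11 were higher and 4 lower. Ccl17 and Ccl22, ligands of Ccr4, a receptor of T cells, had 2 counts each in untreated M-BMDM and stood at 286 and 75.8 CPM in untreated GM-BMDM, and the ratio for Ccl22 was 1412 (391 to 11664). Ccl6, a chemokine of myeloid cells, stood at 16970.3 and 15248 CPM in GM-BMDM, against 457 and 291 CPM in M-BMDM. The monocyte-attracting chemokines Ccl2 (55.1 CPM in GM-BMDM and 2.28 in M-BMDM; 24.2-fold higher, 19.5 to 30.4) and Ccl7 (10.03 CPM in GM-BMDM and 1.26 in M-BMDM; 7.96-fold higher, 5.87 to 11.004), Ccl9 (2208 CPM in GM-BMDM and 828 in M-BMDM) and Ccl3 (193 CPM in GM-BMDM and 48.2 in M-BMDM) were higher. The lower ligands were the interferon-induced Cxcl10, Cxcl16 (97.8 CPM in GM-BMDM and 249 in M-BMDM), Ccl5 and the neutrophil attractant Cxcl2 (6.48 CPM in GM-BMDM and 14.9 in M-BMDM). Receptors of some of these chemokines differed in the same direction. Ccr1 stood at 440.1 and 449 CPM in GM-BMDM, against 2.44 and 2.87 CPM in M-BMDM. Ccr2 stood at 194 and 187 CPM in GM-BMDM, against 42.5 and 26.0 CPM in M-BMDM (4.55-fold higher, 4.31 to 4.81). Of 15 chemoattractant receptors compared 5 were higher and 5 lower. The complement receptors C5ar1 (69.2 CPM in GM-BMDM and 358 in M-BMDM; 5.16-fold lower, 4.96 to 5.38) and C3ar1 (436 CPM in GM-BMDM and 1561 in M-BMDM; 3.58-fold lower, 3.52 to 3.64) were lower, and so was the sphingosine-phosphate receptor S1pr1 (6.43 CPM in GM-BMDM and 86.6 in M-BMDM; 13.5-fold lower, 11.9 to 15.3). The leukotriene B4 receptor Ltb4r1 was higher (6.21 CPM in GM-BMDM and 0.134 in M-BMDM), and so were Alox5 (52.4 CPM in GM-BMDM and 5.37 in M-BMDM; 9.76-fold higher, 8.44 to 11.3) and Ltc4s (57.2 CPM in GM-BMDM and 6.15 in M-BMDM; 9.31-fold higher, 8.12 to 10.7), the enzymes that start leukotriene synthesis and make leukotriene C4. The prostaglandin D synthase Hpgds was lower (41.6 CPM in GM-BMDM and 369.9 in M-BMDM; 8.89-fold lower, 8.45 to 9.35).

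Cytokine ligands were split, with 7 of 26 compared higher and 9 lower. Inhba, the activin A subunit, stood at 87.5 and 104 CPM in GM-BMDM, against 0.322 and 0.403 CPM in M-BMDM. Fstl1, a secreted follistatin relative, stood at 256 and 226 CPM in GM-BMDM, against 1.72 and 1.37 CPM in M-BMDM. The interleukin-1 family was higher in part. Il1a stood at 84.9 and 113 CPM in GM-BMDM, against 0.429 and 1.87 CPM in M-BMDM. The receptor antagonist Il1rn stood at 251 and 238 CPM in GM-BMDM, against 16.5 and 14.1 CPM in M-BMDM, whereas Il1b differed by -0.44 (7.23 CPM in GM-BMDM and 10.2 in M-BMDM). Of its receptors, the interleukin-36 receptor Il1rl2 (69.6 CPM in GM-BMDM and 0.322 in M-BMDM) and the decoy Il1r2 (17.8 CPM in GM-BMDM, 1 count in M-BMDM) were higher. The anti-inflammatory cytokine Il10 was lower at 0.0745 and 0 CPM in GM-BMDM, against 9.77 and 1.68 CPM in M-BMDM, and its receptor chain Il10ra was lower too (140.2 CPM in GM-BMDM and 365 in M-BMDM; 2.60-fold lower, 2.52 to 2.69). Igf1 (479 CPM in GM-BMDM and 1248 in M-BMDM; 2.61-fold lower, 2.56 to 2.65), Bmp2 (0.969 CPM in GM-BMDM and 22.5 in M-BMDM) and Il15 (9.31 CPM in GM-BMDM and 38.2 in M-BMDM) were lower, and Tnf stayed within 1 (20.6 CPM in GM-BMDM and 40.5 in M-BMDM; -0.94 on the log2 scale). Among receptors the hepatocyte growth factor receptor Met stood at 174 and 151 CPM in GM-BMDM, against 2.31 and 1.97 CPM in M-BMDM, Tnfrsf9 (4-1BB) at 25.1 CPM in GM-BMDM against 3 counts in M-BMDM, and the interleukin-6 receptor Il6ra was lower (24.99 CPM in GM-BMDM and 103 in M-BMDM; 4.12-fold lower, 3.84 to 4.42).

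Interferon-stimulated genes, which type I interferon switches on through factors that include Stat2 and Irf9, were lower across the list. Of 36 listed 35 were compared, 29 of them lower and 0 higher, and all 35 had differences below 0, against 52.5% of all genes. The median was -2.40 untreated and -2.34 with tunicamycin, and all 35 fell in the fit (32 to 35 with each library left out in turn). The summed level was 1282 CPM in untreated GM-BMDM and 4950.4 CPM in untreated M-BMDM. The RNA-binding antiviral protein Ifit2 stood at 10.9 and 11.5 CPM in GM-BMDM, against 356 and 327 CPM in M-BMDM. Its neighbour Ifit1 stood at 6.58 and 6.08 CPM in GM-BMDM, against 156 and 124 CPM in M-BMDM. In both genes the GM-BMDM libraries lay far below the M-BMDM libraries, with or without tunicamycin. Irf7, the regulator of interferon genes, stood at 5.56 and 7.28 CPM in GM-BMDM, against 165 and 153 CPM in M-BMDM. Oas3, an enzyme that activates RNA decay, stood at 15.5 and 16.4 CPM in GM-BMDM, against 182 and 149 CPM in M-BMDM (11.7-fold lower, 10.8 to 12.8). Rsad2 (viperin) stood at 14.8 and 16.9 CPM in GM-BMDM, against 136 and 177 CPM in M-BMDM (9.19-fold lower, 8.44 to 10.02). The factors Stat2 and Irf9 differed less, with Stat2 at -0.71 and Irf9 at -0.89 on the log2 scale, and the receptor Ifnar1 at -0.71. Ifitm1, outside the list, went the other way at 165 and 51.4 CPM in GM-BMDM, against 2.42 and 3.03 CPM in M-BMDM, while its neighbours Ifitm2 (36.6 CPM in GM-BMDM and 99.0 in M-BMDM) and Ifitm3 (259 CPM in GM-BMDM and 535 in M-BMDM) were lower. Ifitm1 was chosen after its values were seen.

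Interferon factors bind a promoter element, the interferon-stimulated response element, whose core is GAAANNGAAA. The promoters of Ifit3, its near copy Ifit3b, Ifit1 and Oas3 are shown because these genes were among the lowest of the list and carry the core. Each window runs 5′ to 3′ from 250 bases before to 50 bases after a transcript start of RefSeq (GRCm38.p6), with the core on either strand in capitals; on the opposite strand it reads TTTCNNTTTC. Ifit3 itself stood at 2.53 and 2.36 CPM in GM-BMDM, against 163 and 128 CPM in M-BMDM. Ifit3 (chr19:34583279-34583578), Ifit3b (chr19:34607707-34608006) and Ifit1 (chr19:34640639-34640938) lie on the plus strand and Oas3 (chr5:120777610-120777909) on the minus strand.
Ifit3: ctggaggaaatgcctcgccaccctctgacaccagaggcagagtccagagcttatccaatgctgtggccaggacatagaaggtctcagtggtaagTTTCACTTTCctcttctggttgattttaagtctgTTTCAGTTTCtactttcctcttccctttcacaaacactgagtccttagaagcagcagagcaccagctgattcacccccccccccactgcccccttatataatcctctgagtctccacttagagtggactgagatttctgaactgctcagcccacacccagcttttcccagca
Ifit3b: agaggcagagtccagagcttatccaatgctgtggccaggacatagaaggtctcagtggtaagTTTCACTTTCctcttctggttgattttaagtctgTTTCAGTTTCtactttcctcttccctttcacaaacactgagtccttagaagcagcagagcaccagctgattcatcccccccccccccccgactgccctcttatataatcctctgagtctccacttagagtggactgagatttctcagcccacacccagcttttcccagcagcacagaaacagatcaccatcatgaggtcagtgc
Ifit1: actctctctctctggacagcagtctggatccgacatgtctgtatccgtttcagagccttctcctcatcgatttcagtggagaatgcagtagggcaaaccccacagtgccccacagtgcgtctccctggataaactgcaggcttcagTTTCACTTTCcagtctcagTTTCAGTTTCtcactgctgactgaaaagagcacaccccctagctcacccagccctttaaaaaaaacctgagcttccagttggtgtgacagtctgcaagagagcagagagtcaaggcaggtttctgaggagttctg
Oas3: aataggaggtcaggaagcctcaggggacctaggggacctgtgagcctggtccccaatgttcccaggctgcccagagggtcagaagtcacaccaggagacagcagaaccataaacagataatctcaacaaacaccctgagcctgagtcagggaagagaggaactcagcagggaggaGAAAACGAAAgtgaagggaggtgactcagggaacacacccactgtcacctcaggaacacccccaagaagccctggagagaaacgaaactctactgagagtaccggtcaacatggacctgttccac
Ifit3, Ifit3b and Ifit1 each held 2 cores and Oas3 held 1. The windows of Ifit2 and Irf7, which differed more than Oas3, held no core. Of 26 genes of the list with such a window 14 (53.8%) held the core, against 4.01% of the 8813 genes compared that had a window. Over all genes with a window in the table it was 3.99%. The motifs named in this report were searched separately on both strands, and matches of different motifs may overlap. The share was 3.93% of the higher genes and 10.8% of the lower genes. The lower genes include 29 members of the interferon-stimulated list, so the 10.8% and the 53.8% partly count the same genes. That list was made of genes already known to respond to interferon. A match is a description of letters and no evidence that a factor bound there. The reads of Ifit3 and Ifit3b can be split between near-identical copies, so their single values are uncertain.

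Sensors of microbes differed in both directions, with more members lower than higher. Of 16 Toll-like receptors and cofactors compared 7 were lower and 1 higher. The nucleic-acid receptors Tlr7 (245 CPM in GM-BMDM and 559 in M-BMDM; 2.29-fold lower, 2.23 to 2.34) and Tlr9 (5.69 CPM in GM-BMDM and 27.9 in M-BMDM; 4.90-fold lower, 4.24 to 5.68) were lower together with their chaperone Unc93b1 (454 CPM in GM-BMDM and 1121 in M-BMDM; 2.47-fold lower, 2.43 to 2.51), and so were Tlr1 (22.8 CPM in GM-BMDM and 88.0 in M-BMDM) and the Cd180 partner Ly86. The endotoxin receptor Tlr4 (504 CPM in GM-BMDM and 497 in M-BMDM) and the adaptor Myd88 (80.4 CPM in GM-BMDM and 88.3 in M-BMDM) did not pass the test. In the fit 1 (3 without the untreated M-BMDM library) rose and 9 fell. Of 21 cytosolic nucleic-acid sensors and inflammasome genes compared 7 were lower and 2 higher, and in the fit 5 (2 without the untreated GM-BMDM library, 2 without the tunicamycin GM-BMDM library) rose and 12 fell. The RNA sensors Ddx58 (RIG-I; 54.7 CPM in GM-BMDM and 209 in M-BMDM), Dhx58 and Ifih1 were lower, while the inflammasome adaptor Pycard (ASC; 183 CPM in GM-BMDM and 57.4 in M-BMDM) and the DNA-sensing adaptor Tmem173 (STING; 116 CPM in GM-BMDM and 55.3 in M-BMDM) were higher.

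Antigen presentation differed by class. MHC class II genes and their machinery were higher for 7 of 13 compared and lower for 0, with a median of 1.02. The peptide-loading chains H2-DMa (187 CPM in GM-BMDM and 36.3 in M-BMDM; 5.15-fold higher, 4.86 to 5.46) and H2-DMb2 (24.5 CPM in GM-BMDM and 1.31 in M-BMDM) differed more than the class II chains H2-Aa (635 CPM in GM-BMDM and 313 in M-BMDM) and H2-Ab1 (547 CPM in GM-BMDM and 268 in M-BMDM) or the invariant chain Cd74 (1262 CPM in GM-BMDM and 728 in M-BMDM). In the fit 11 (5 without the untreated GM-BMDM library) rose. Of 16 class I genes 15 stayed within 1, with a median of -0.62, and 9 (2 without the untreated GM-BMDM library, 4 without the tunicamycin GM-BMDM library) fell in the fit. The exception, H2-Q6, has near-identical copies. The checkpoint ligand Pdcd1lg2 (PD-L2) stood at 37.6 and 27.6 CPM in GM-BMDM, against 0.483 and 0.711 CPM in M-BMDM. Cd274 (PD-L1) stood at 338 and 425 CPM in GM-BMDM, against 49.5 and 129 CPM in M-BMDM.

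Receptors and soluble proteins for uptake differed in both directions. Scavenger and uptake receptors had 6 higher and 1 lower of 18 compared, with 11 within 1. Complement genes had 4 higher and 4 lower of 14 compared. C-type lectins had 6 higher and 6 lower of 17. Fc receptors and their signalling genes had 3 higher and 3 lower of 15, with 9 within 1. The complement chains C1qa, C1qb and C1qc, whose genes adjoin on chromosome 4, were all lower, with C1qa at 121 and 99.1 CPM in GM-BMDM, against 856 and 532 CPM in M-BMDM (7.08-fold lower, 6.87 to 7.30). The complement-receptor integrin chains Itgam (365 CPM in GM-BMDM and 144 in M-BMDM) and Itgb2 (2294 CPM in GM-BMDM and 723 in M-BMDM; 3.17-fold higher, 3.13 to 3.22) were higher. The beta-glucan receptor Clec7a (dectin-1) stood at 2081 and 2078 CPM in GM-BMDM, against 413 and 319 CPM in M-BMDM. Clec4n (dectin-2) stood at 1242 and 1187 CPM in GM-BMDM, against 167 and 102 CPM in M-BMDM. The receptors Clec4e (mincle; 80.7 CPM in GM-BMDM and 575 in M-BMDM; 7.12-fold lower, 6.86 to 7.39) and Clec12a (41.7 CPM in GM-BMDM and 439.7 in M-BMDM; 10.6-fold lower, 10.04 to 11.1) were lower. The inhibitory Fc receptor Fcgr2b was higher (428 CPM in GM-BMDM and 106 in M-BMDM; 4.04-fold higher, 3.90 to 4.18), the high-affinity receptor Fcgr1 lower (92.1 CPM in GM-BMDM and 264 in M-BMDM; 2.87-fold lower, 2.76 to 2.98), and Fcgr4 did not pass the test (140.1 CPM in GM-BMDM and 128 in M-BMDM). Mfge8, which bridges phagocytes to dead cells, stood at 1474 and 1453 CPM in GM-BMDM, against 52.4 and 54.2 CPM in M-BMDM, and the scavenger receptor Msr1 was higher (898 CPM in GM-BMDM and 238 in M-BMDM; 3.77-fold higher, 3.68 to 3.86). The endotoxin coreceptor Cd14 was lower (165 CPM in GM-BMDM and 565 in M-BMDM; 3.42-fold lower, 3.33 to 3.52).

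Metabolic genes differed in several branches. For arginine, the transporter Slc7a2 stood at 813 and 729 CPM in GM-BMDM, against 5.72 and 6.40 CPM in M-BMDM. Arginase Arg1 stood at 788 and 707 CPM in GM-BMDM, against 0.322 and 0.972 CPM in M-BMDM. The citrulline-recycling enzyme Ass1 stood at 209.9 and 202 CPM in GM-BMDM, against 8.67 and 7.75 CPM in M-BMDM (24.2-fold higher, 21.7 to 27.1). Nos2, the inducible nitric oxide synthase, was under 0.6 CPM in both untreated libraries, and Odc1, which makes the first polyamine, was higher (67.7 CPM in GM-BMDM and 24.6 in M-BMDM). Of the tryptophan pathway Kynu (93.7 CPM in GM-BMDM and 1.85 in M-BMDM; 50.6-fold higher, 39.9 to 65.2) and Kmo (20.8 CPM in GM-BMDM and 4.80 in M-BMDM; 4.33-fold higher, 3.68 to 5.12) were higher. In all 9 of the 16 genes compared on this list were higher and 0 lower.

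Lipid synthesis genes were mostly higher in GM-BMDM, and genes of lipid transport and breakdown went both ways. Cholesterol synthesis genes were higher for 19 of 23 compared, with all 23 above 0 (47.5% of all genes were) and 21 that rose in the fit. Mvd (135 CPM in GM-BMDM and 25.4 in M-BMDM; 5.33-fold higher, 4.98 to 5.72) was among the largest differences, and the pathway's regulators Srebf2 (0.32) and Insig1 (0.22) stayed within 1. Among fatty-acid genes the desaturases were far higher, with Scd1 at 283 and 249 CPM in GM-BMDM, against 2.50 and 2.84 CPM in M-BMDM. Scd2 stood at 808 and 729 CPM in GM-BMDM, against 33.5 and 23.6 CPM in M-BMDM. The fatty-acid synthase Fasn was higher as well (317 CPM in GM-BMDM and 100.3 in M-BMDM; 3.16-fold higher, 3.05 to 3.28). Mgll, the monoacylglycerol lipase, stood at 395 and 361 CPM in GM-BMDM, against 4.54 and 6.59 CPM in M-BMDM (87.0-fold higher, 74.8 to 102). The sterol exporter Abcg1 was higher (797 CPM in GM-BMDM and 190.4 in M-BMDM; 4.18-fold higher, 4.08 to 4.29) and its relative Abca1 lower (224 CPM in GM-BMDM and 521 in M-BMDM; 2.33-fold lower, 2.27 to 2.39). Apoe, the apolipoprotein of macrophages, stood at 1455 and 1533 CPM in GM-BMDM, against 18350.1 and 13805 CPM in M-BMDM (12.6-fold lower, 12.5 to 12.7), and the sterol hydroxylase Cyp27a1 was lower (15.2 CPM in GM-BMDM and 112 in M-BMDM; 7.42-fold lower, 6.82 to 8.09). Plin2, the lipid-droplet coat protein, and Cpt1a, the gate of fatty-acid oxidation, did not pass the test (-0.10 and -0.03).

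Energy genes differed by smaller amounts. Of 19 glycolysis genes 7 were higher and 0 lower, led by Gapdh (2552 CPM in GM-BMDM and 806 in M-BMDM; 3.17-fold higher, 3.13 to 3.21), a gene often used to scale other measurements, while Actb differed by 0.31. All 22 nuclear genes of oxidative phosphorylation stayed within 1, with a median of 0.42, and 19 (4 without the untreated GM-BMDM library, 7 without the tunicamycin GM-BMDM library) of them rose in the fit. Mitochondrially encoded mRNAs were higher for 7 of 9 compared with a median of 1.13.

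Of 14 iron and heme genes compared 7 were lower, 6 within 1 and 1 higher, and in the tunicamycin pair 5 were lower and 1 higher. The iron exporter Slc40a1 (ferroportin) stood at 21.9 and 15.4 CPM in GM-BMDM, against 345 and 128 CPM in M-BMDM (15.7-fold lower, 14.7 to 16.9). The transferrin receptor Tfrc stood at 69.9 and 49.2 CPM in GM-BMDM, against 710.0 and 419 CPM in M-BMDM (10.2-fold lower, 9.76 to 10.6). The phagosomal metal transporter Slc11a1 stood at 95.6 and 96.6 CPM in GM-BMDM, against 541 and 478 CPM in M-BMDM (5.66-fold lower, 5.47 to 5.86). Importer and exporter differed in the same direction, while the ferritin chains Fth1 (0.18) and Ftl1 (0.32) stayed within 1. The heme-breakdown enzymes Hmox1 (338 CPM in GM-BMDM and 715 in M-BMDM) and Blvrb (136 CPM in GM-BMDM and 309 in M-BMDM) were lower. Of 18 antioxidant genes 6 were lower, among them catalase, Cat (384 CPM in GM-BMDM and 1677 in M-BMDM; 4.37-fold lower, 4.29 to 4.45), and the glutathione-synthesis subunits Gclc and Gclm, and 2 were higher, including the cystine transporter Slc7a11 (377 CPM in GM-BMDM and 104 in M-BMDM; 3.61-fold higher, 3.49 to 3.74).

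Secreted proteases and proteins of clotting were mostly higher or level. The elastase of macrophages, Mmp12, stood at 11202 and 10734 CPM in GM-BMDM, against 263 and 289 CPM in M-BMDM. Mmp2 stood at 66.0 and 64.0 CPM in GM-BMDM, against 0.778 and 0.853 CPM in M-BMDM. Mmp19 stood at 496 and 512 CPM in GM-BMDM, against 64.9 and 47.3 CPM in M-BMDM. Of 13 plasminogen and coagulation genes compared 9 were higher and 0 lower, with a median of 1.94. The urokinase Plau (264 CPM in GM-BMDM and 24.9 in M-BMDM; 10.6-fold higher, 9.91 to 11.3), its receptor Plaur (424 and 433 CPM in GM-BMDM, against 18.6 and 21.5 CPM in M-BMDM) and its inhibitor Serpinb2 (27.5 CPM in GM-BMDM and 0.295 in M-BMDM) were all higher. Coagulation factors F7 (100.4 CPM in GM-BMDM and 2.25 in M-BMDM; 44.6-fold higher, 35.9 to 56.0), F10 (280.1 CPM in GM-BMDM and 16.9 in M-BMDM; 16.6-fold higher, 15.3 to 18.0) and F5 (35.1 CPM in GM-BMDM and 2.52 in M-BMDM) were higher as well, and the inhibitors Tfpi and Thbd each differed by 0.01 on the log2 scale. Acp5 (301 CPM in GM-BMDM and 7.03 in M-BMDM), Ctsk (83.1 CPM in GM-BMDM and 6.52 in M-BMDM) and the fusion protein Dcstamp (42.1 CPM in GM-BMDM and 0.725 in M-BMDM), genes also used as osteoclast markers, were higher, with the calcitonin receptor Calcr and Oscar at or under 0.0268 CPM in both untreated libraries. Of the adhesion and matrix list 9 of 21 compared were higher and 4 lower. Fibronectin, Fn1, stood at 1205 and 857 CPM in GM-BMDM, against 1.80 and 2.91 CPM in M-BMDM. The adhesion protein E-cadherin, Cdh1, was at 73.5 CPM in untreated GM-BMDM against 1 count in untreated M-BMDM. Cadm1, an adhesion protein of the immunoglobulin family, was lower at 5.07 and 4.71 CPM in GM-BMDM, against 259 and 217 CPM in M-BMDM. The neuropilin Nrp1 was lower (171 CPM in GM-BMDM and 585 in M-BMDM; 3.43-fold lower, 3.34 to 3.52). Integrin chains split as well, with Itga1 at 108 and 104 CPM in GM-BMDM, against 1.26 and 1.47 CPM in M-BMDM. Itga6 stood at 60.8 and 50.5 CPM in GM-BMDM, against 292 and 259 CPM in M-BMDM. Itga4 stood at 110.4 CPM in GM-BMDM and 374 in M-BMDM, and Itgb1 did not pass the test (688 CPM in GM-BMDM and 674 in M-BMDM).

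Genes of extracellular nucleotides and other small ligands were unequal. Of 18 purinergic genes compared 10 were higher and 2 lower. The ectoenzymes Bst1 (483 and 499 CPM in GM-BMDM, against 12.9 and 10.3 CPM in M-BMDM) and Cd38 (224 and 214 CPM in GM-BMDM, against 10.6 and 8.15 CPM in M-BMDM), which consume NAD, were higher, and Nt5e (CD73), which makes adenosine, had 1 count in untreated M-BMDM and 17.2 CPM in untreated GM-BMDM. The ATP-gated channel P2rx7 (86.6 CPM in GM-BMDM and 221 in M-BMDM; 2.55-fold lower, 2.45 to 2.66) and the UDP receptor P2ry6 (60.1 CPM in GM-BMDM and 164 in M-BMDM; 2.73-fold lower, 2.60 to 2.86) were lower, and Entpd1 (CD39) did not pass the test (148 CPM in GM-BMDM and 160.2 in M-BMDM). Among other G-protein-coupled receptors Gpr171 stood at 69.1 and 55.3 CPM in GM-BMDM, against 0.322 and 0.284 CPM in M-BMDM. The orphan Gpr162 stood at 0.869 and 0.589 CPM in GM-BMDM, against 102 and 99.9 CPM in M-BMDM. The proton sensor Gpr65 stood at 9.12 and 8.01 CPM in GM-BMDM, against 184 and 151 CPM in M-BMDM (20.2-fold lower, 18.2 to 22.5). The adrenergic receptor Adra1a had 3 counts in untreated GM-BMDM and stood at 33.7 CPM in untreated M-BMDM, a ratio of 452 (154 to 2196).

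Genes of cell division were higher in GM-BMDM. Of 26 mitosis genes 24 were higher and 0 lower, 25 rose in the fit, and the count that rose was 25 with each library left out in turn. Cyclin A2, Ccna2, stood at 69.5 and 61.0 CPM in GM-BMDM, against 2.79 and 4.01 CPM in M-BMDM. The DNA-untangling enzyme Top2a stood at 253 and 231 CPM in GM-BMDM, against 22.9 and 31.6 CPM in M-BMDM (11.05-fold higher, 10.3 to 11.9). The anaphase enzyme Ube2c stood at 21.4 and 16.1 CPM in GM-BMDM, against 0.698 and 0.972 CPM in M-BMDM (30.7-fold higher, 20.8 to 47.2). The spindle motor Kif11 stood at 70.6 and 56.8 CPM in GM-BMDM, against 5.23 and 6.42 CPM in M-BMDM (13.5-fold higher, 11.7 to 15.7). The spindle-midzone protein Prc1 stood at 59.3 and 55.7 CPM in GM-BMDM, against 4.48 and 6.64 CPM in M-BMDM (13.2-fold higher, 11.3 to 15.6). Incenp alone was below 0, at -0.19. Of 26 DNA replication genes 18 were higher and 0 lower, with Pcna at 0.17 and Mcm6 at 0.45 among those within 1. Genes that hold back the cycle were mostly level, with the exceptions of Cdkn1a (p21; 66.1 CPM in GM-BMDM and 22.03 in M-BMDM) and Tob1, which were higher, and Cdkn1c (p57; 5.94 CPM in GM-BMDM and 19.2 in M-BMDM), which was lower.

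Many genes of mitosis carry a promoter element called the cell cycle genes homology region (CHR), TTTGAA or TTTAAA, close to the start. The promoters of Ube2c, Kif11 and Prc1 are shown as members that were far higher and carry it, in the same window of RefSeq (GRCm38.p6) with the element on either strand in capitals, where TTCAAA is the first form read on the opposite strand. Ube2c (chr2:164769679-164769978), Kif11 (chr19:37376132-37376431) and Prc1 (chr7:80294201-80294500) lie on the plus strand.
Ube2c: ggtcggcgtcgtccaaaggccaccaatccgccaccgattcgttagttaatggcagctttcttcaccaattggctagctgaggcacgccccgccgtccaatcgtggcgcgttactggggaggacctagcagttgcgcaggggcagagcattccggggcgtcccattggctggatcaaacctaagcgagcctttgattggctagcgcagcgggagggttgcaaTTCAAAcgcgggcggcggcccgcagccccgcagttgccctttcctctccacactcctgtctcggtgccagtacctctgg
Kif11: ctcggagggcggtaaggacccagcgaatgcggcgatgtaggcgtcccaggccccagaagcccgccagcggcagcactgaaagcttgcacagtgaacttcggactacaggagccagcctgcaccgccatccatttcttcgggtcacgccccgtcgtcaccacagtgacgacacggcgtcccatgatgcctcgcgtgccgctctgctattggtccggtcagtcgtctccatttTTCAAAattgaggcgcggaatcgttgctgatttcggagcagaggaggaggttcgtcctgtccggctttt
Prc1: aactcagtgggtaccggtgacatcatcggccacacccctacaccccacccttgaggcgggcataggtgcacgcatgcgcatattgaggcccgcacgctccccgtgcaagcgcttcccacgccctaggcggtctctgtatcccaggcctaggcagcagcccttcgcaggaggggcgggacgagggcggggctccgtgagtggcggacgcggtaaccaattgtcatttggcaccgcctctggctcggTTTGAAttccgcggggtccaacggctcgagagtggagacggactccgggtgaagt
The element began 29 bases before the start in Ube2c, 19 in Kif11 and 5 in Prc1. Of 21 mitosis genes with a window 18 (85.7%) held it, against 22.6% of the genes compared and 30.6% of all genes with a window in the table. The short CCAAT motif was in 85.7% of these genes and in 43.2% of the genes compared, and the ETS core GGAAGT in 23.8% and 34.2%. Among all higher genes, which include 24 of the mitosis genes, the CHR share was 29.4%, and among lower genes 26.3%. CCAAT was also in 16 of 17 cholesterol synthesis genes with a window (94.1%).

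Before any stress the genes of the endoplasmic reticulum (ER) were close to level. So were most genes at large, with 19.4% of all genes compared differing by at least 1 in either direction. Of 25 ER chaperone and degradation genes compared 23 stayed within 1, with a median of 0.25. The main chaperone Hspa5 (BiP) stood at 1048 CPM in GM-BMDM and 1080.1 in M-BMDM, Hsp90b1 at 989 CPM in GM-BMDM and 782 in M-BMDM and Calr at 1391 CPM in GM-BMDM and 1028 in M-BMDM. The exceptions were the disulphide isomerase Pdia4 (448 CPM in GM-BMDM and 131 in M-BMDM; 3.41-fold higher, 3.30 to 3.52) and the oxidase Ero1l (151 CPM in GM-BMDM and 60.1 in M-BMDM; 2.52-fold higher, 2.40 to 2.64), both higher. All 26 N-glycosylation genes compared stayed within 1, among them Dpagt1, the enzyme that tunicamycin blocks (36.1 CPM in GM-BMDM and 28.4 in M-BMDM; 1.27-fold higher, 1.17 to 1.38). Mfsd2a, a transporter described as a route of tunicamycin into human cells, was not compared because of its low mean, and stood at 1.96 CPM in GM-BMDM and 0.107 in M-BMDM. The sensors Eif2ak3 (PERK; -0.02), Ern1 (IRE1; -0.61) and Atf6 (-0.62) stayed within 1.

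The integrated stress response slows translation and induces Atf4 targets. Over all genes compared, 19.4% differed by at least 1 in either direction in the untreated pair. Of 32 genes of the sensors and this response 28 stayed within 1 in that pair, with a median of 0.02. The exceptions were the amino acid transporter Slc7a5 (19.3 CPM in GM-BMDM and 3.62 in M-BMDM; 5.33-fold higher, 4.44 to 6.45) and the serine-synthesis enzymes Psat1 and Phgdh, which were higher, and the asparagine synthetase Asns (11.6 CPM in GM-BMDM and 28.7 in M-BMDM; 2.47-fold lower, 2.21 to 2.76), which was lower. In the tunicamycin pair the same list had a median of -0.74, with 12 members lower and 0 higher in GM-BMDM. Chac1 stood at 0.546 and 5.11 CPM in GM-BMDM, against 0.537 and 49.4 CPM in M-BMDM. Ddit3 (CHOP) stood at 13.5 and 44.3 CPM in GM-BMDM, against 17.04 and 194 CPM in M-BMDM. Atf4 stood at 216 and 299 CPM in GM-BMDM, against 160.1 and 614 CPM in M-BMDM. For these 3 genes the untreated libraries of the kinds lay close together and the tunicamycin libraries lay apart. Interferon-stimulated, mitosis and cholesterol genes had medians of -2.34, 2.76 and 1.77 in the tunicamycin pair, against -2.40, 2.94 and 1.40 in the untreated pair. Whether any of these medians differ between the pairs was not tested.

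**Figure D4:**
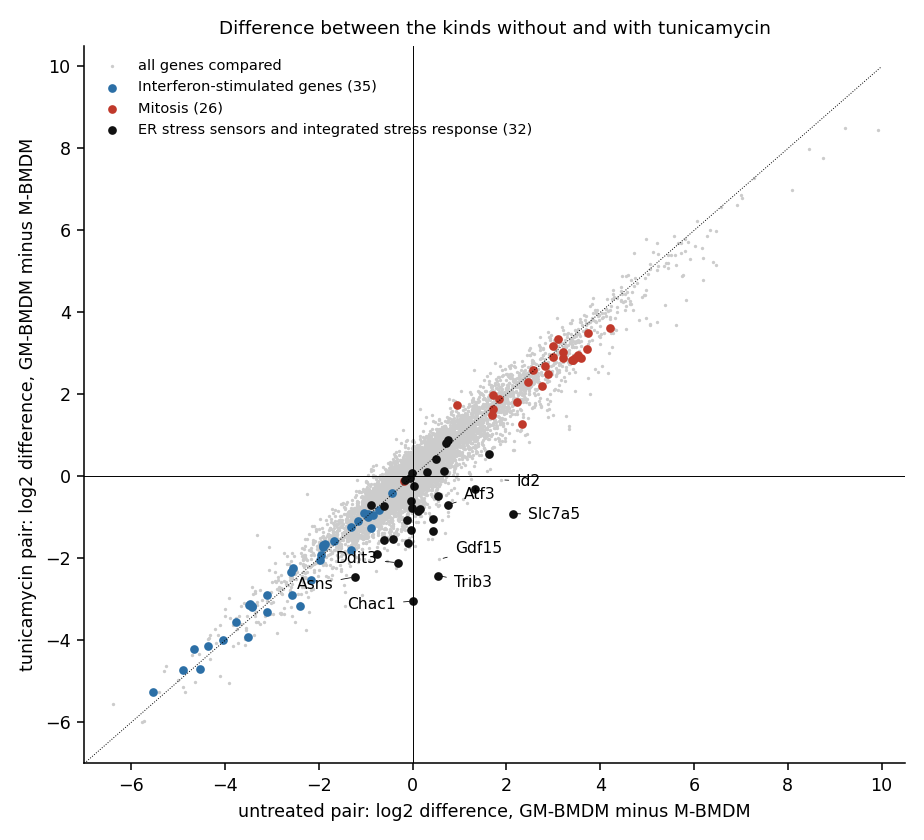
Difference between GM-BMDM and M-BMDM for each gene compared, as log2(CPM + 1), in the untreated pair (horizontal axis) and the tunicamycin pair (vertical axis), which share no library. Grey points are all genes, and the dotted line marks equal differences. Interferon-stimulated genes (blue, 35) and mitosis genes (red, 26) lie along the line, while Slc7a5, Trib3, Gdf15, Chac1 and Ddit3 lie below it.

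The largest differences of the untreated pair stayed large in the tunicamycin pair. Chil3, a chitinase-like protein of alternatively activated macrophages, stood at 2822 and 2930.3 CPM in GM-BMDM, against 1.91 and 7.35 CPM in M-BMDM, and its difference was 9.92 untreated and 8.46 with tunicamycin. Chil3 has a near copy, so its value is uncertain. Ccn3, a secreted matrix protein, stood at 369.9 and 332 CPM in GM-BMDM, against 0.0537 and 0.308 CPM in M-BMDM. Spint1, a protease inhibitor, stood at 264 and 270.5 CPM in GM-BMDM, against 0.698 and 0.758 CPM in M-BMDM. On the lower side Clec4a1, a lectin of the Clec4a family, stood at 1.27 and 1.27 CPM in GM-BMDM, against 190.1 and 106 CPM in M-BMDM. The cytoskeletal protein Pdlim4 stood at 0.919 and 0.966 CPM in GM-BMDM, against 49.3 and 39.4 CPM in M-BMDM. The B-cell and macrophage protein Cd72 stood at 5.29 and 3.44 CPM in GM-BMDM, against 155 and 142 CPM in M-BMDM. For each of these 6 genes both libraries of one kind lay far from both of the other. The survival gene Bcl2a1a differed by 6.47 untreated and 5.15 with tunicamycin. Bcl2a1a and Bcl2a1d (115 CPM in GM-BMDM and 2.50 in M-BMDM) are near copies, so their separate values are uncertain. Of the 1371 higher genes 10 did not rise in the fit, named here after their values were seen. One was Id2, a factor of dendritic-cell development, at 179 and 137 CPM in GM-BMDM, against 47.8 and 145 CPM in M-BMDM. Its untreated libraries lay apart, and its tunicamycin libraries close together. Others were Irs2 and Ifrd1. Of the lower genes Cbr3 alone did not fall.

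Some genes were close to off in one kind. A total of 36 genes had at most 3 counts in untreated M-BMDM and at least 10 CPM in untreated GM-BMDM, and 23 of them also had at most 3 counts in tunicamycin M-BMDM. They included the retinoic-acid-making enzyme Aldh1a2 (23.9 CPM in GM-BMDM and 0 counts in M-BMDM, a ratio of 297 with 3 counts in place of 0). Others were the interleukin-2 receptor chain Il2ra (15.5 CPM and 0 counts) and the tight-junction protein Cldn1 (18.0 CPM and 0 counts). The stem-cell marker Prom1 (17.5 CPM and 0 counts) and the potassium channel Kcnn3 (21.5 CPM and 1 count) were also among the 36. In the opposite direction Adra1a was the single gene that met the same limits, and it had more than 3 counts in tunicamycin GM-BMDM.

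The largest gaps in CPM were carried by few genes. Ccl6, Mmp12, Spp1 and mt-Co1 had the largest excess in GM-BMDM, with Spp1 (osteopontin) at 11539 and 10792 CPM in GM-BMDM, against 1053 and 981 CPM in M-BMDM. Apoe, Selenop, Csf1r and Lyz2 had the largest deficit, although Lyz2 did not pass the test (34953 and 33138 CPM in GM-BMDM, against 39136 and 21849 CPM in M-BMDM). The cathepsins went both ways in CPM, with Ctsd at 8316 CPM in GM-BMDM and 4447 in M-BMDM and Ctsb at 8058 CPM in GM-BMDM and 11641 in M-BMDM. The calls in the fit of 9 genes named for large gaps or counts, mt-Co1, Gpnmb, Ctsd, Ctss, Actb, Lgals3, Mpeg1, Itm2b and Lipa, were lost without the untreated GM-BMDM library and without the tunicamycin GM-BMDM library.

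Several families of neighbouring genes, looked at after their values were seen, differed as a group or gene by gene. Positions are those of GENCODE M21 (GRCm38), matched by Ensembl ID, since the sources used here name no build for the deposited values. In the Ms4a cluster of membrane proteins (chr19:11067471-11604849 for the 8 genes compared) the 6 genes from Ms4a14 to Ms4a6b were lower, with Ms4a7 at 24.6 and 20.9 CPM in GM-BMDM, against 439 and 267 CPM in M-BMDM. Ms4a6b stood at 3.63 and 3.39 CPM in GM-BMDM, against 177 and 108 CPM in M-BMDM. At the ends of that stretch Ms4a8a was higher (8.12 CPM in GM-BMDM and 0.0537 in M-BMDM) and Ms4a6d did not pass the test (161 CPM in GM-BMDM and 171 in M-BMDM). In the Ifi200 cluster of interferon-induced DNA-binding proteins (chr1:173350879-174031810) 11 of 12 genes compared were lower, with Ifi204 at 65.3 and 57.1 CPM in GM-BMDM, against 334 and 232 CPM in M-BMDM, and the DNA sensor Aim2 at its end differed by 0.69. All 5 genes compared of the Ifit cluster (chr19:34550694-34650009) were lower. In the Clec4 lectin cluster (chr6:122921848-123289870) the neighbours Clec4n and Clec4d went opposite ways, at 1242 CPM in GM-BMDM and 167 in M-BMDM for Clec4n and 291 CPM in GM-BMDM and 1015 in M-BMDM for Clec4d, and Clec4a1 had the most negative difference of all 11049 genes, -6.40. Of 11 Ccl and Wfdc genes compared on chromosome 11 (chr11:82035571-83752642) 7 were higher and 1 lower, with the small secreted protein Wfdc21 at 58.0 and 58.1 CPM in GM-BMDM, against 0.0537 and 0.0711 CPM in M-BMDM. In the Mmp cluster (chr9:7272514-7581885) Mmp13, Mmp12 and Mmp8 were higher and Mmp27 was lower (4.74 CPM in GM-BMDM and 18.1 in M-BMDM). Tmem176a (8.37 CPM in GM-BMDM and 279 in M-BMDM) and Tmem176b (20.9 CPM in GM-BMDM and 632 in M-BMDM), which overlap on chromosome 6, were both lower. Members of these families share sequence, and the strand setting of the counting is unknown here, so reads of near copies and of overlapping genes could be assigned to either.

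**Figure D5:**
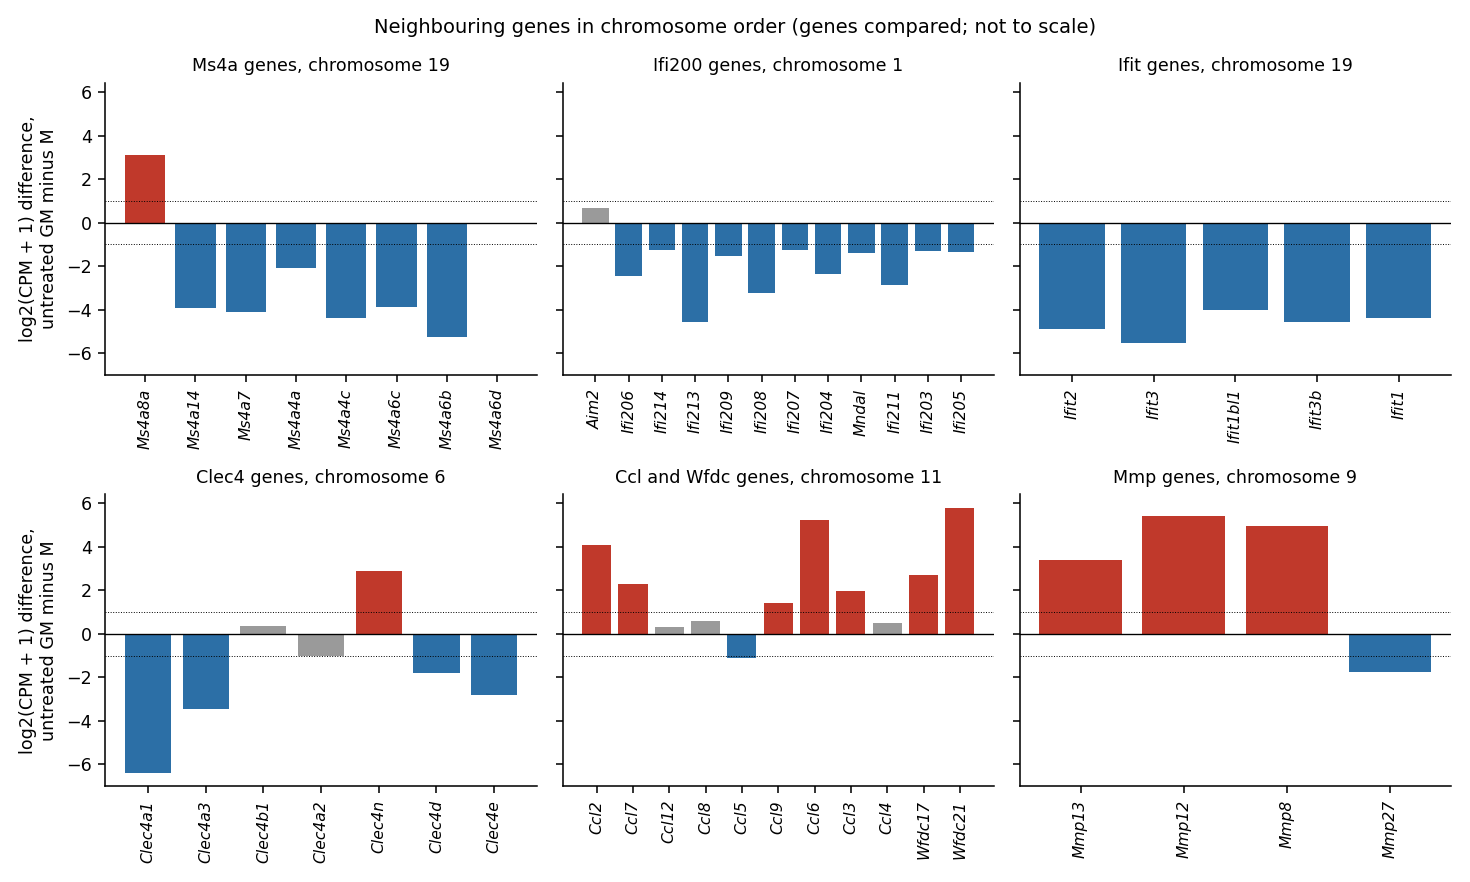
Log2(CPM + 1) difference between untreated GM-BMDM and untreated M-BMDM for the genes compared in 6 gene clusters, in chromosome order and not to scale. Red bars are higher and blue bars lower by at least 1 (dotted lines). The Ifit and Ifi200 clusters lie below 0 except Aim2, the Ccl and Wfdc genes of chromosome 11 lie above 0 except Ccl5, and the Clec4 and Mmp clusters hold genes of both directions.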

How the data were processed

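RNA of bone-marrow-derived macrophages was sequenced. The deposited table gives counts of reads per gene, whole numbers made by the authors, and FPKM per the file headers. The submitters' processing notes name cutadapt 1.15, HISAT2 and TopHat2 2.1.0, with no role or order. The sources used here do not name the genome build, the counting program or its strand setting. Counts were scaled to CPM with TMM factors of edgeR 4.0.16, and differences taken as log2(CPM + 1), which understates changes of genes with few reads. The mean of the 4 macrophage libraries had to reach 1 CPM. The edgeR quasi-likelihood fit (kind plus tunicamycin, with 1 residual degree of freedom) was tested on simulated data. A call needs an adjusted p of 0.05. The deposited FPKM values were used for levels between genes and as an alternative unit. Alternatives were total-count scaling, DESeq2 1.42.0, other pseudocounts and filters, and leaving out libraries. The comparison, the gene lists and the markers were chosen with earlier results of these data known. Named genes were those with the largest differences or gaps in CPM, up to 6 per list with the largest difference, members needed to account for a list, and genes with at most 3 counts in one kind. Promoter windows and motifs were read from a RefSeq table, and gene positions from GENCODE M21.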

Additional observations from a re-analysis of the deposited data

Results flagged for a closer look

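Among 886 list members and named genes examined, 5 had differences of opposite sign in the 2 pairs, at least 0.5 on the log2 scale in each, with GM-BMDM above M-BMDM untreated and below it with tunicamycin. That the pairs differ was not tested, since each holds 1 library per kind, and 15 of all 11049 genes met the same limit. Slc7a5, Atf3, Gdf15 and Trib3 are known to respond to stress or amino acid shortage, and Gpr157 is an orphan receptor.

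Slc7a5, which imports large amino acids, differed by 2.14 untreated and -0.91 with tunicamycin. It stood at 19.3 and 28.8 CPM in GM-BMDM without and with tunicamycin, against 3.62 and 54.9 CPM in M-BMDM. The stress factor Atf3 differed by 0.76 and -0.69, at 250.01 and 260.2 CPM in GM-BMDM and 147 and 421 CPM in M-BMDM. Gpr157 differed by 0.62 and -1.05, at 13.8 and 12.7 CPM in GM-BMDM and 8.59 and 27.4 CPM in M-BMDM. The secreted stress cytokine Gdf15 differed by 0.57 and -2.02, at 16.4 and 25.5 CPM in GM-BMDM and 10.8 and 107 CPM in M-BMDM. Trib3, a pseudokinase induced by Atf4, differed by 0.55 and -2.42, at 2.51 and 13.5 CPM in GM-BMDM and 1.40 and 76.6 CPM in M-BMDM. For each gene the M-BMDM libraries lay further apart than the GM-BMDM libraries.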

How the results depend on the processing

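No paired analysis was possible because each kind has 1 library per treatment, and the replicate numbers pair nothing. Raising the threshold to a log2 difference of 2 left 650 higher and 228 lower genes, fewer by construction. Total-count scaling, DESeq2 size factors, pseudocounts of 0.1 and 5, no filter, a mean of 5 CPM and the deposited FPKM gave 956 to 1504 higher and 543 to 920 lower genes, and the share of calls that were higher ran between 60.0% and 65.1% under these. At the threshold of 2 it was 74.0%. In the fit DESeq2's Wald test called 2544 and 2064 genes, and leaving out each library in turn gave 1577 to 3126 that rose and 1052 to 3152 that fell, with 1577 and 1052 without the untreated GM-BMDM library and 1685 and 1113 without the tunicamycin GM-BMDM library. The cause was not tested. Of 5568 genes called, 2407 kept their call and direction without each of the 4 libraries, and none was called in the opposite direction. For 94 named genes under 4 settings of scaling or pseudocount, 243 of the values lay within the counting interval and 133 did not, and none of either changed sign. Of the list medians so recomputed, 166 stayed within and 34 moved, with no change of sign for a median of at least 1. With 1 library per group, animals, cultures and library preparation cannot be told apart from kind.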

Other observations

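Replication-dependent histone genes were not on the lists above, and the group was chosen after its values were seen. Of 47 Hist1 genes compared, all in the histone cluster of chromosome 13 (GRCm38, from position 21715763 to 23764406), 40 were higher in untreated GM-BMDM and 0 lower, with a median of 1.86. In the tunicamycin pair 31 were higher and 0 lower, with a median of 1.44, and 39 rose and 0 fell in edgeR's quasi-likelihood fit. Their summed level was 1756 and 2015 CPM in GM-BMDM without and with tunicamycin, against 585 and 1104 CPM in M-BMDM. These histones are made during DNA synthesis and most of their mRNAs lack a poly(A) tail. The labels name total RNA and the series' design text mRNA, and whether poly(A) selection differed between libraries was not tested. Because these genes are near copies of each other, single values are uncertain. Of the nuclear chromosomes 13 had the largest share of higher genes, 98 of 462 compared (21.2%), and 58 of the other 415 were higher without the Hist1 genes. The next shares among nuclear chromosomes were 17.1% for chromosome 6 and 15.5% for chromosome 3. Of 9 mitochondrial genes compared 7 were higher (77.8%).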
